A study of Rattus norvegicus with 24 samples.

Results

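The genes described here are the heat shock proteins and chaperonins of rat skeletal muscle, the proteins that hold, fold and refold other proteins. They were taken by gene symbol alone: every Hspa, Hspb, Hspd, Hspe and Hsph gene, every numbered Dnaja, Dnajb and Dnajc gene, every numbered Cct gene and Tcp1, with the row of highest mean where a symbol had several rows. The pattern found 73 of the 13458 symbols in the table: 7 small heat shock proteins (Hspb), 14 genes of the Hsp70 family (Hspa and Hsph1), both genes of the mitochondrial chaperonin (Hspd1 and Hspe1), 39 DnaJ genes, 9 genes of the cytosolic chaperonin CCT and 2 further genes, Hspbp1 and Hspbap1. The cytosolic Hsp90 genes are written Hsp90 in the table and do not match the pattern, so they are given separately as a list.

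RNA was measured in the tibialis anterior, the ankle-lifting muscle of the lower leg, of 12 male Fischer 344 rats aged 23 ± 1 months. In 9 rats an osmotic pump delivered tetrodotoxin (TTX), a blocker of nerve sodium channels, onto the left common peroneal nerve, so that the left dorsiflexors could not be activated. The question was how aged muscle responds to disuse, to renewed activity and to a repeat of disuse. The atrophy group was taken after 6 to 7 days of TTX (n = 3), the recovery group after the same block and 9 days without TTX (n = 3), and the repeated atrophy group after a further 5 to 6 days of TTX (n = 3). The control group was the untreated right tibialis anterior of these same 9 rats, so each control limb came from an animal that carried a pump and a blocked or once-blocked left leg. A further 3 sham-operated rats gave 3 left and 3 right limbs. By the labels, sham animals 1, 2 and 3 belong to the atrophy, recovery and repeated atrophy times, 1 animal each. Each library came from bulk tissue of 1 muscle.

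Small heat shock proteins hold unfolding proteins without using ATP, and in muscle they are found on the contractile filaments and their anchoring discs. Hsp70 proteins bind and release unfolded stretches in cycles driven by ATP, DnaJ proteins (also called Hsp40) deliver clients and start those cycles, and the exchange factors end them. CCT is a ring-shaped chamber of 8 different subunits that folds actin and tubulin, and Hspd1 (Hsp60) with its lid Hspe1 (Hsp10) forms the corresponding chamber of mitochondria. Many of these genes are controlled by heat shock factor 1 (HSF1), which binds repeats of GAA and TTC called heat shock elements, while chaperones of the endoplasmic reticulum (ER) carry a different element that answers to unfolded protein in the ER.

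Promoter sequences from RefSeq (build GRCr8, 250 bases before to 50 after each gene's start) were found for 60 of the 73 genes and searched for 59. Hspa1a was left out of the search, because the row named Hspa1b has the length that RefSeq gives Hspa1a. A heat shock element of 3 units, GAANNTTCNNGAA or TTCNNGAANNTTC, stood in 6 of the 59 (10.2%) and in 0.736% of 27457 promoters of all genes. The 6 were Hsph1, Hspd1, Hspe1, Hspa8, Dnaja1 and Cct4. The shorter form of 2 units, GAANNTTC or TTCNNGAA, which lies inside every match to the longer one, stood in 18 of 59 (30.5%) and in 15.4% of all promoters. The ER stress element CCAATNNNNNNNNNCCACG stood in Hspa5 and Dnajc3 (3.39% of 59) and in 0.0765% of all promoters. Both strands were searched. For 8 genes a stretch is printed 5′ to 3′ on the gene's strand, with the matched letters in capitals. These genes carry the elements, or, for Hspb8 and Hspb6, moved in opposite directions against control after repeated atrophy.
Hsph1: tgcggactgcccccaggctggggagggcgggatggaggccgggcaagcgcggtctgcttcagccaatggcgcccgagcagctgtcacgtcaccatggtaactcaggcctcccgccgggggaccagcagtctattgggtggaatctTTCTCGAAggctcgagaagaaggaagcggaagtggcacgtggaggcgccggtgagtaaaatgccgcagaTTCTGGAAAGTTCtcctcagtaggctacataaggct
Hspd1: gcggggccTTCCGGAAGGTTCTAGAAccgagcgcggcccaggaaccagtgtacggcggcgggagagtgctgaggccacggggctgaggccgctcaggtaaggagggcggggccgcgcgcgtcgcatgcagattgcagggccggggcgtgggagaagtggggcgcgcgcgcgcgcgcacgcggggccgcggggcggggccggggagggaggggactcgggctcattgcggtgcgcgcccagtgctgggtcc
Hspa8: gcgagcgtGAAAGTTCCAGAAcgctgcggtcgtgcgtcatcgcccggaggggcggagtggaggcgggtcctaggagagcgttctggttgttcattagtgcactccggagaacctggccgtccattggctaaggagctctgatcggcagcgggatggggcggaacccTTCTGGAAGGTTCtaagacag
Dnaja1: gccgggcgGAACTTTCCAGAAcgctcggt
Cct4: gcgtcgctTTCTGGAAGGTTCgtggaggc
Hspb8: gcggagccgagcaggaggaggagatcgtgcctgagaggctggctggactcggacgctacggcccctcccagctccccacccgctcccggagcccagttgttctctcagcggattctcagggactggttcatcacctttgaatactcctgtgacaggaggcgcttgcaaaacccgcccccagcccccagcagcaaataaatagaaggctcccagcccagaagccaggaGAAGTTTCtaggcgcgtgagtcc
Hspb6: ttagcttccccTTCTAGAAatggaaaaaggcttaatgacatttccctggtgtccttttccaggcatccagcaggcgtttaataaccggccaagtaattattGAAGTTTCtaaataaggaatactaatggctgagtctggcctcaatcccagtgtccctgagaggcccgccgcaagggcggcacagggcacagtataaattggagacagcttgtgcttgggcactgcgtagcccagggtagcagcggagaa
Hspa5: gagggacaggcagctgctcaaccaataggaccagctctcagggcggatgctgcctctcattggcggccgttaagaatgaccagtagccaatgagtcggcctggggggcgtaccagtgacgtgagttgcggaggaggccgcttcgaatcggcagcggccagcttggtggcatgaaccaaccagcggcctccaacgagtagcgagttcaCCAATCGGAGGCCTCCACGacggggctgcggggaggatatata

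In GRCr8 these lie at chr12:10427118-10427367 (plus strand), chr9:64084038-64084287 (minus), chr8:50080293-50080479 (plus), chr5:60638405-60638433 (plus), chr14:101193074-101193102 (plus), chr12:45837058-45837307 (plus), chr1:94934122-94934371 (plus) and chr3:38452766-38453015 (plus). Hsph1, Hspd1, Hspa8, Hspb8, Hspb6 and Hspa5 are shown before the transcription start, and the Dnaja1 and Cct4 stretches follow it. Hspd1 and Hspe1 lie head to head on chromosome 9, and their promoter windows share 211 bases, so 1 run of GAA and TTC units is counted for both genes. A match is a run of letters in a window, not a measured binding site.

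Values are the deposited CPM, the reads of a gene per 1000000 reads, tested with limma on log2(CPM + 1). A log2 fold change is on that scale, and for genes of low level it is smaller than the true change. Gene coordinates are those of the table (rn7). A gene is said to have risen or fallen when it changed by at least 1.2-fold with a Benjamini-Hochberg adjusted p of 0.05 or less over all rows tested. The comparisons with control all share the same 9 control limbs. All 73 genes passed the filter on low values, and 4 of them (Cct6b, Dnajb3, Dnajc6 and Hspa1a) had a control mean under 1 CPM. Sequencing depth, read from the step between low values, was 18.9 to 30.9 (in units of 1000000 reads) per library, so that 1 read was worth at most 0.053 CPM.

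The middle of the whole table moved with TTX: the median log2 fold change over 14031 rows was 0.22 for atrophy, 0.02 for recovery and 0.20 for repeated atrophy. When libraries were rescaled to a trimmed mean, these medians were 0.00, 0.01 and −0.01, so rescaled results are given beside each family. The left limb of atrophy animal 2 stood apart from the other atrophy limbs: the summed CPM of 10 fast-fibre genes was 186500 there, within the control range of 176200 to 218400, against 72180 and 80220 in the other two. In sham animal 3, the one sham of the repeated atrophy time, both limbs were high for many of the genes described here. Defining muscle-fibre genes were abundant in every library, for 6 markers found in the table with a summed level of at least 48140 CPM. That sum also moved with the groups in which many of the chaperone genes rose: it was 65670 to 110600 CPM (median 101600) in control limbs, 48140 to 73400 (58420) in atrophy limbs, 81580 to 91790 (89750) in recovery limbs and 56890 to 70190 (63370) in repeated limbs, and its part in the results was not tested. In bulk tissue, fewer cells of a type and less RNA per cell cannot be told apart.

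After atrophy, 28 of the 73 genes rose and none fell, beside 20.3% of all rows that rose and 2.33% that fell. The genes that rose were 3 small heat shock proteins, 3 Hsp70 genes, Hspe1, 13 DnaJ genes and 8 CCT genes, and the median log2 fold change over the 73 was 0.50. After recovery, 4 rose and 5 fell, beside 4.4% and 3.33% of all rows, with a median of 0.03. After repeated atrophy, 35 rose and 4 fell, beside 28.1% and 6.24%, with a median of 0.55. The summed CPM of the 73 genes was 8517 ± 1017 (SD, n = 9) in control limbs, against 14640 ± 3594 in atrophy limbs, 10860 ± 382 in recovery limbs and 16480 ± 1401 in repeated limbs (n = 3 each). Most of the difference between recovery and control limbs was Hspb6, singled out after its values were seen: without it the sum of the other 72 genes was 7439 ± 1108 in control limbs and 8049 ± 855.5 in recovery limbs, which at 7346 to 9001 lay within the control range of 6394 to 9774. Repeated limbs ran from 15240 to 18000 and lay above every control limb, whose highest was 10640, while the lowest atrophy limb, at 10490, lay below it.

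The strength of these counts differed between conditions. In a blocked fit, with the animal as the block so that each left limb is set against its own right limb, limma called 0 of 73 genes after atrophy (20 at an unadjusted p under 0.05, smallest adjusted p = 0.149, beside 0.0% of all rows in either direction), 0 after recovery (11 unadjusted, smallest adjusted p = 0.0921, beside 0.0428% of all rows higher and 0.0214% lower), and 30 higher and 3 lower after repeated atrophy, beside 21.5% and 5.66% of all rows. Without both limbs of atrophy animal 1, 0 genes were called after atrophy (24 unadjusted), without animal 2 there were 39, and without animal 3 there were 24. When only the left limb of atrophy animal 3 was left out, 0 were called (35 unadjusted). After recovery, 1, 2 and 5 genes were called without animals 1, 2 and 3. After repeated atrophy, 34, 24 and 35 were called without animals 1, 2 and 3. The shares of all rows in these leave-out fits are not given, so these counts cannot be set against the whole table. Rescaling left 11 higher and 4 lower after atrophy, beside 4.73% and 4.95% of all rows, and 20 higher and 7 lower after repeated atrophy, beside 13.1% and 12.1%. After recovery rescaling left 3 higher and 7 lower, beside 6.02% and 6.04%.

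**Figure D1:**
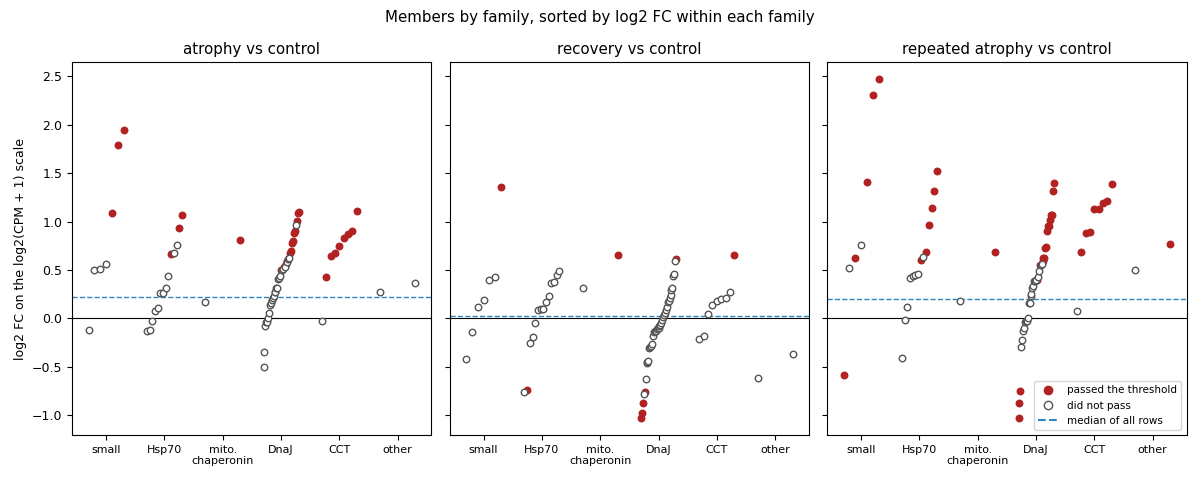
Log2 fold change against the 9 control limbs (y axis, on log2(CPM + 1)) of each of the 73 genes by family (x axis) after atrophy, recovery and repeated atrophy; filled red points passed the test, open points did not, and the dashed blue line is the median of all rows tested. CCT points other than Cct6b lie above the line after atrophy and repeated atrophy, and DnaJ points spread on both sides of it.

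Small heat shock proteins were 3 of the 4 most abundant transcripts among the 73 genes, and 2 of them, Hspb8 and Hspb7, had the highest log2 fold changes after atrophy and after repeated atrophy. Per kilobase of transcript, Hspb6 was highest in control limbs at 823 CPM, ahead of Hspa8 at 569, Hspb8 at 374 and Hspb7 at 269.5, with Hspb1 at 155. Of the 7 genes, Hspb8, Hspb7 and Hspb1 rose after atrophy and again after repeated atrophy, when Hspb3 also rose, while Hspb6 rose after recovery and fell after repeated atrophy. All rows gave 20.3% higher for atrophy, 4.4% higher for recovery, and 28.1% higher and 6.24% lower for repeated atrophy. After rescaling 2 of the 7 rose after atrophy (4.73% of all rows), 1 after recovery (6.02%), and 3 rose and 1 fell after repeated atrophy (13.1% and 12.1%). The family's median log2 fold change was 0.56 for atrophy, 0.19 for recovery and 0.75 for repeated atrophy, and 0.27, 0.17 and 0.44 after rescaling. The summed level of the family was 2451 ± 414 CPM in control limbs, 5955 ± 2649 in atrophy limbs, 4417 ± 459 in recovery limbs and 7029 ± 1232 in repeated limbs.

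Hspb8 (chromosome 12, 40176559 to 40191189, rn7), the partner of Bag3 in the disposal of damaged muscle filament proteins, was at 499.6 to 1079 CPM (median 635) in the control limbs. It was at 3500, 1126 and 2848 CPM in atrophy animals 1 to 3, at 813, 683 and 1180 in recovery animals and at 4316, 3119 and 3414 in repeated animals. All atrophy and repeated limbs lay above all control limbs, with atrophy animal 2 close to the highest control limb. The log2 fold change was 1.79 ± 0.29 (SE) for atrophy (adjusted p = 0.00506, limma), 0.43 ± 0.29 for recovery (0.378) and 2.47 ± 0.29 for repeated atrophy (3.76e-05), the last a 5.54-fold rise. In the blocked fit the repeated value was 2.50 (adjusted p = 0.00305) and the atrophy value 1.53 (adjusted p = 0.151). Without atrophy animal 1 the atrophy value was 1.47 (adjusted p = 0.125).

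Hspb7 (chromosome 5, 153727782 to 153731269), a small heat shock protein of heart and skeletal muscle, was at 255 to 1158 CPM (median 369) in control limbs, with atrophy limbs at 2224, 627.5 and 3250 CPM, recovery limbs at 392, 469 and 642 and repeated limbs at 2419, 1706 and 2347. Atrophy animal 2 lay within the control range, and the highest control limb was the right limb of atrophy animal 3. The log2 fold changes were 1.95 ± 0.42 (0.00791), 0.19 ± 0.42 (0.822) and 2.31 ± 0.42 (0.000626). Hspb1 (chromosome 12, 20794014 to 20795676), the Hsp27 protein that protects actin filaments, was at 97.1 to 218 CPM (median 124.5) in control limbs, with atrophy limbs at 229, 258 and 387 CPM, recovery limbs at 119.8, 107 and 137 and repeated limbs at 506, 303 and 293. Each atrophy and repeated limb was above each control limb, and recovery limbs lay among the controls. Its log2 fold changes were 1.09 ± 0.24 (0.00795), −0.14 ± 0.24 (0.76) and 1.41 ± 0.24 (0.000349). Without atrophy animal 1 the adjusted p after atrophy was 0.138 for Hspb7 and 0.125 for Hspb1, and after rescaling the atrophy value of Hspb1 was 0.72 (adjusted p = 0.062).

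Hspb6 (chromosome 1, 85806928 to 85809068), also called Hsp20, followed a different course. Control limbs were at 865 to 1211 CPM (median 1132), atrophy limbs at 938, 822 and 1237, recovery limbs at 2645, 3596 and 2191 and repeated limbs at 987, 743 and 502 CPM. All recovery limbs lay far above every other TTX-animal limb, and repeated limbs reached from the control range down to the lowest value. The log2 fold change after recovery was 1.36 ± 0.20 (adjusted p = 0.00137), a 2.56-fold rise, and that after repeated atrophy was −0.58 ± 0.20 (adjusted p = 0.0332). Hspb6 was the 1 gene of the 73 whose recovery call was present without animal 1, and it was also called without animals 2 and 3. In the blocked fit its adjusted p was 0.0921 after recovery and 0.0887 after repeated atrophy. The fall after repeated atrophy was −0.96 after rescaling (adjusted p = 0.00861) and lost its call without animal 2 (−0.61, adjusted p = 0.11) and without animal 3 (−0.32, adjusted p = 0.324). Against atrophy, Hspb6 was higher after recovery by 1.48 ± 0.25 (adjusted p = 0.00452), the 1 gene of the 73 to be higher there. Sham left limbs spread widely for Hspb6, at 581, 1453 and 709 CPM.

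Hspb3, which pairs with Hspb2 in muscle, was at 46.4 to 91.8 CPM (median 58.45) in control and at 108, 92.25 and 81.03 CPM after repeated atrophy, with a log2 fold change of 0.63 ± 0.19 (adjusted p = 0.0168). That call was absent without repeated animal 1 (adjusted p = 0.101) or 2 (0.084), and after rescaling the value was 0.25 (adjusted p = 0.302). Hspb2 was at 19.5 to 38.5 CPM (median 29.1) in control limbs, with atrophy limbs at 49.01, 27.01 and 55.7 CPM, recovery limbs at 20.75, 18.8 and 26.3 and repeated limbs at 53.05, 37.4 and 38.8, and passed the test in none of the comparisons with control over all animals. Without atrophy animal 2 it passed after atrophy (0.79, adjusted p = 0.00986), and without control replicate 9, the right limb of atrophy animal 3, after repeated atrophy (0.57, adjusted p = 0.0402). Hspb11, the small and atypical member that works in cilia, was low at 1.95 to 8.80 CPM (median 3.08) and did not pass either (repeated atrophy 0.75 ± 0.29, adjusted p = 0.051).

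**Figure D2:**
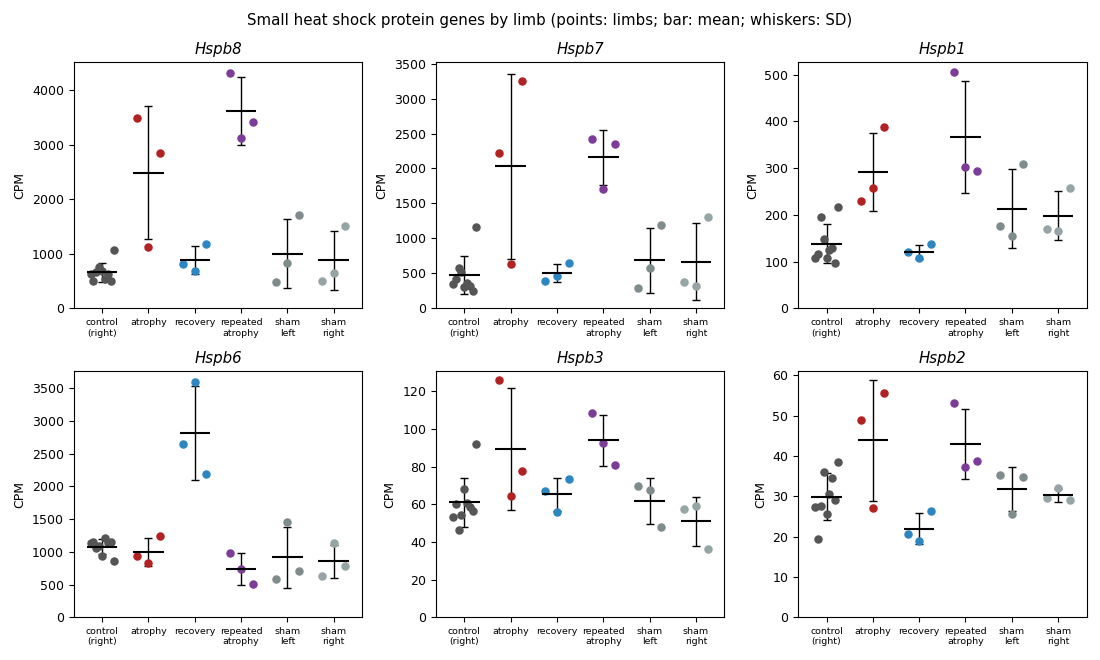
CPM (y axis, from 0) of 6 small heat shock protein genes in every limb by group (x axis), with points for limbs, bars for group means and whiskers for SD. Hspb8, Hspb7 and Hspb1 are high after atrophy and repeated atrophy, with atrophy animal 2 low for Hspb8 and Hspb7, and Hspb6 is high in the 3 recovery limbs.

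Of the 14 Hsp70 genes, 3 rose after atrophy (Hspa5, Hspa4 and Hsph1), 6 rose after repeated atrophy (Hsph1, Hspa4, Hspa2, Hspa14, Hspa8 and Hspa1l), and 1 fell after recovery (Hspa12b). The median log2 fold change was 0.29, 0.09 and 0.53 after atrophy, recovery and repeated atrophy, and −0.03, 0.07 and 0.19 after rescaling, so the median after atrophy changed sign. Of all rows, 20.3% rose after atrophy, 28.1% rose after repeated atrophy and 3.33% fell after recovery. The count after atrophy was close to the share of all rows. Of the 14, 6 passed in none of these comparisons.

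Hsph1 (chromosome 12, 5390990 to 5410225), Hsp110, is the exchange factor that lets cytosolic Hsp70 release its client, and its promoter carries a 3-unit element. Control limbs were tightly grouped at 74.6 to 95.8 CPM (median 88.3), with atrophy limbs at 213.5, 119 and 99.9, recovery limbs at 98.5, 69.5 and 110 and repeated limbs at 181, 242 and 225 CPM. All repeated limbs were far above the controls, whereas after atrophy animal 1 was high and animal 3 lay just above the highest control limb. The log2 fold change was 0.67 ± 0.18 after atrophy (adjusted p = 0.0174) and 1.31 ± 0.18 after repeated atrophy (adjusted p = 0.000112; 1.25 and 0.00513 with the animal as a block). Without atrophy animal 1 the atrophy value was 0.33 (adjusted p = 0.281). Hspa4, a relative of Hsph1, was at 156 to 259 CPM (median 181) in control and at 536, 257 and 358 CPM in atrophy limbs and 376.5, 494 and 405 in repeated limbs. It rose by 0.93 ± 0.20 (adjusted p = 0.00741) and 1.14 ± 0.20 (adjusted p = 0.000445), and without atrophy animal 1 the atrophy value was 0.66 (adjusted p = 0.143).

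Hspa8 (chromosome 8, 41183397 to 41187261), the constitutive Hsc70 and the most abundant Hsp70 transcript here, was at 785 to 1485 CPM (median 1167) in control limbs, with atrophy limbs at 1449, 1424 and 1356 CPM, recovery limbs at 1519, 1460 and 1862 and repeated limbs at 1806, 2161 and 1718. Repeated limbs lay above all control limbs, and atrophy limbs lay within the control range. It rose after repeated atrophy by 0.68 ± 0.19 (adjusted p = 0.00926), a call absent without animal 2 (adjusted p = 0.0698), after rescaling (0.30, adjusted p = 0.333) and in the blocked fit (adjusted p = 0.086). Hspa2, an Hsp70 best known from testis, was low at 4.13 to 10.2 CPM (median 5.20) and at 8.415, 27.7 and 28.4 CPM after repeated atrophy, where animal 1 lay within the control range (1.52 ± 0.36, adjusted p = 0.00362; 0.0594 without animal 2). Hspa14, which works at the ribosome, rose by 0.60 ± 0.16 after repeated atrophy (adjusted p = 0.008), but its adjusted p was 0.079 without animal 2, 0.182 after rescaling and 0.1 with the block. Hspa1l rose by 0.96 ± 0.32 (adjusted p = 0.0276), with an adjusted p of 0.0598, 0.0829 and 0.0575 without animals 1, 2 and 3.

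The stress-inducible Hsp70 did not pass the test in any of these comparisons. The row named Hspa1b was at 12.4 to 38.7 CPM (median 22.8) in control limbs, with atrophy limbs at 18.8, 16.1 and 28.35 CPM, recovery limbs at 17.5, 25.2 and 22.65 and repeated limbs at 36.2, 36.9 and 21.6, which overlapped throughout. The log2 fold changes were −0.11 ± 0.28, −0.05 ± 0.28 and 0.44 ± 0.28 (adjusted p = 0.807, 0.943 and 0.234). Hspa1a was at or near 0 in most limbs and at most 1.675 CPM. These genes are near-identical copies, the length of the Hspa1b row (4045 bases) is the one RefSeq gives Hspa1a, and the Hspa1b row overlaps that of Hspa1l by 468 bases, so the split of reads among the 3 is uncertain. Hspa12b, an endothelial relative of Hsp70, fell after recovery (−0.74 ± 0.19, adjusted p = 0.0242; 0.141 without animal 2), with recovery limbs at 13.2, 8.68 and 11.1 CPM against 11.85 to 24.5 CPM (median 19.6). The mitochondrial Hsp70, Hspa9, was at 358 to 555 CPM (median 458) in control and did not pass (0.08 ± 0.15, 0.38 ± 0.15 and 0.12 ± 0.15), nor did Hspa13, Hspa4l and Hspa12a, each under 10 CPM in the control limbs on average.

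Hspa5 (chromosome 3, 18055507 to 18059970), BiP, the Hsp70 of the ER, was at 229.9 to 471 CPM (median 279.8) in control limbs, with atrophy limbs at 648, 485 and 769 CPM, recovery limbs at 276, 225 and 247 and repeated limbs at 781, 433 and 292. Every atrophy limb was above every control limb, recovery limbs sat at the low end of the controls, and repeated limbs ran from the highest value of all to inside the control range. It rose after atrophy by 1.07 ± 0.25 (adjusted p = 0.00939; 0.70 and 0.081 after rescaling; 0.136 without animal 1). After repeated atrophy the value was 0.64 ± 0.25 (adjusted p = 0.0531), 0.85 in the blocked fit (adjusted p = 0.0243) and 0.92 without repeated animal 3 (adjusted p = 0.0165). Dnajb11, the DnaJ partner of BiP inside the ER, rose in both conditions, by 0.89 ± 0.17 (adjusted p = 0.00646) and 0.74 ± 0.17 (adjusted p = 0.0036). Its atrophy limbs were at 106, 61.7 and 86.8 CPM and its repeated limbs at 87.96, 76 and 62.3 CPM, against 35.95 to 62.3 CPM (median 41.8) in control, and after rescaling the repeated value was 0.36 (adjusted p = 0.0831). Dnajb9, another ER partner of BiP, rose after atrophy by 0.91 ± 0.23 (adjusted p = 0.0131; 0.135 after rescaling) and had 0.56 ± 0.23 after repeated atrophy (adjusted p = 0.0713). Dnajc3, the other gene with the ER stress element, was at 0.96 ± 0.35 after atrophy (adjusted p = 0.0575) and 0.24 ± 0.35 after repeated atrophy (0.665), neither of which passed. Without atrophy animal 1 the adjusted p after atrophy was 0.13 for Dnajb11 and 0.149 for Dnajb9.

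Of the 2 genes of the mitochondrial chaperonin, Hspd1 passed after recovery and Hspe1 after atrophy and repeated atrophy, and the log2 fold changes of both were above 0 in all 3 comparisons. Hspd1 (chromosome 9, 56579196 to 56589623) was at 142 to 245 CPM (median 188) in control limbs, with atrophy limbs at 242, 197 and 200.1 CPM, recovery limbs at 323, 307.5 and 260.5 and repeated limbs at 201, 273 and 177, so that recovery was the one group with all limbs above all controls. It rose after recovery by 0.65 ± 0.17 (adjusted p = 0.03; 0.0539 after rescaling, 0.273 with the block and 0.168 without animal 1). Hspe1 (chromosome 9, 56589912 to 56593000) was at 47.15 to 101.5 CPM (median 69.99) in control limbs, with atrophy limbs at 158, 102 and 130 CPM, recovery limbs at 106, 78.6 and 90.98 and repeated limbs at 115.5, 145 and 97.2. It rose after atrophy by 0.81 ± 0.21 (adjusted p = 0.0127; 0.173 without animal 1) and after repeated atrophy by 0.68 ± 0.21 (adjusted p = 0.0152; 0.153 without animal 2), but after rescaling neither passed (0.44 and 0.30, adjusted p = 0.138 and 0.257). Whether the change of the one differed from that of the other was not tested.

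**Figure D3:**
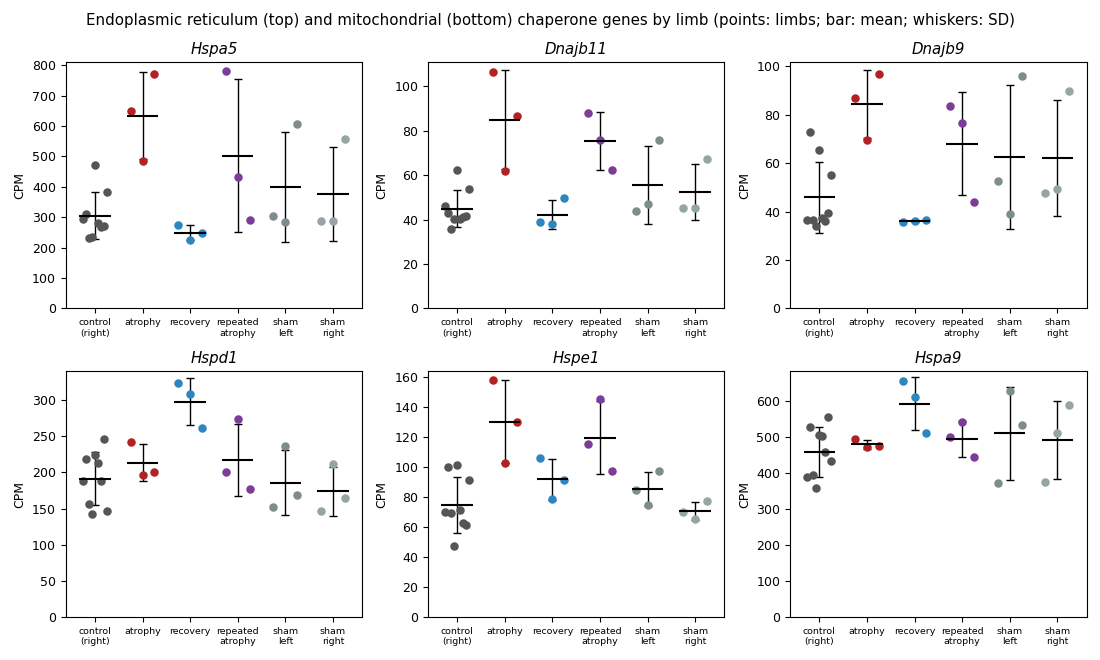
CPM (y axis, from 0) of the ER genes Hspa5, Dnajb11 and Dnajb9 and the mitochondrial genes Hspd1, Hspe1 and Hspa9 in every limb by group (x axis), with points for limbs, bars for means and whiskers for SD. The ER genes are high after atrophy and at control level after recovery, and Hspd1 is above all controls in the 3 recovery limbs.

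All 8 subunits of the CCT ring rose after atrophy and all 8 rose after repeated atrophy, while 1 of them, Cct8, rose after recovery, beside 20.3%, 28.1% and 4.4% of all rows in that order. The log2 fold changes ran from 0.43 (Cct7) to 1.11 (Cct2) after atrophy and from 0.68 (Cct7) to 1.39 (Cct2) after repeated atrophy. After rescaling, 4 of the 8 rose after atrophy (Cct2, Cct3, Cct5 and Cct6a) and all 8 after repeated atrophy, beside 4.73% and 13.1% of all rows. In the blocked fit none was called after atrophy (5 CCT genes at an unadjusted p under 0.05, limma) and all 8 after repeated atrophy, beside 0.0% and 21.5% of all rows. In the repeated group the 3 limbs of every subunit lay above all 9 control limbs, beside 16.5% of all rows. After atrophy this held for 2 of the 8, Cct6a and Cct8, beside 4.75% of all rows, with atrophy animal 2 inside the control range for the others. The median log2 difference from the control mean over the 9 CCT genes was 1.04, 0.41 and 0.77 in atrophy animals 1 to 3, and 1.03, 1.13 and 1.03 in repeated animals 1 to 3.

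Cct2 (chromosome 7, 52692733 to 52705479) was at 81.95 to 211.5 CPM (median 111) in control limbs, with atrophy limbs at 347, 193.5 and 267 CPM, recovery limbs at 136, 112 and 156 and repeated limbs at 292, 358.5 and 306 (1.11 ± 0.25 and 1.39 ± 0.25, adjusted p = 0.00873 and 0.000546). Cct5 (chromosome 2, 82591750 to 82602904), the most abundant subunit, was at 172.5 to 279 CPM (median 180.5) in control limbs, with atrophy limbs at 394, 255 and 396 CPM, recovery limbs at 221, 209 and 267 and repeated limbs at 422, 451 and 442 (0.83 ± 0.16 and 1.19 ± 0.16, adjusted p = 0.00623 and 8.12e-05). Its repeated limbs were close to one another and well above the controls. Cct8 (chromosome 11, 26710370 to 26722080) was at 98.6 to 144 CPM (median 114) in control limbs, with atrophy limbs at 237, 156 and 172 CPM, recovery limbs at 189, 164 and 195 and repeated limbs at 237, 291 and 237, with all 9 left limbs above all 9 control limbs. Its log2 fold changes were 0.68 ± 0.14, 0.65 ± 0.14 and 1.13 ± 0.14 (adjusted p = 0.00721, 0.0119 and 6.01e-05). The recovery call of Cct8 was absent with the block (adjusted p = 0.189) and without animal 1 (0.0887) or animal 3 (0.0632).

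For the remaining subunits, the log2 fold changes after atrophy and repeated atrophy were 0.90 and 1.13 for Cct3, 0.64 and 0.89 for Cct4, 0.87 and 1.21 for Cct6a, 0.43 and 0.68 for Cct7, and 0.74 and 0.88 for Tcp1, the founding subunit. Per kilobase, the 8 subunits spanned 46.1 CPM (Cct8) to 111 (Cct5) in control, a ratio of 2.41, and 92.2 (Cct7) to 252 (Cct5) after repeated atrophy, a ratio of 2.74. The subunits thus kept a similar spread of levels, and their order was not the same at the low end. Cct6b, a variant subunit known from testis, was at 0 to 0.446 CPM in control and no more than 0.458 CPM after repeated atrophy, which is 12 reads in the highest library of each group, and did not pass.

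Of the 39 DnaJ genes, 13 rose after atrophy and none fell, 1 rose and 4 fell after recovery, and 15 rose and 3 fell after repeated atrophy. As shares of the 39, 33.3% rose after atrophy beside 20.3% of all rows, 2.56% rose and 10.3% fell after recovery beside 4.4% and 3.33%, and 38.5% rose and 7.69% fell after repeated atrophy beside 28.1% and 6.24%. After rescaling 4 rose and 4 fell after atrophy (10.3% each, beside 4.73% and 4.95%), 1 rose and 5 fell after recovery (2.56% and 12.8%, beside 6.02% and 6.04%), and 6 rose and 5 fell after repeated atrophy (15.4% and 12.8%, beside 13.1% and 12.1%). The median log2 fold change was 0.50, −0.10 and 0.40, and 0.14, −0.12 and 0.04 after rescaling. By class, 2 of 4 Dnaja, 5 of 10 Dnajb and 6 of 25 Dnajc genes rose after atrophy, and 2, 5 and 8 after repeated atrophy. Of the 39, 15 passed in none of the comparisons with control.

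Dnaja1 (chromosome 5, 55842414 to 55853327), a main cytosolic partner of Hsp70 with a 3-unit element just after its start, was at 35.5 to 71.3 CPM (median 49.2) in control limbs, with atrophy limbs at 131, 78.7 and 96.7 CPM, recovery limbs at 58.5, 51.2 and 66.3 and repeated limbs at 119, 159 and 102. Atrophy and repeated limbs all lay above the control limbs, by 1.00 ± 0.21 (adjusted p = 0.00709; 0.137 without animal 1) and 1.32 ± 0.21 (adjusted p = 0.000229). Dnaja2, its close relative, rose by 0.56 ± 0.16 (adjusted p = 0.0195; 0.227 without animal 1) and 0.96 ± 0.16 (adjusted p = 0.000331), with repeated limbs at 412, 443 and 427 CPM against 187.5 to 298 CPM (median 199) in control. Dnaja4, also of this class, went the other way: it was at 65.9 to 129 CPM (median 86.96) in control, 80.2, 97.7 and 116 CPM in atrophy limbs and 44.55, 62.3 and 50.5 in repeated limbs. Its repeated limbs were all below the controls (−0.75 ± 0.18, adjusted p = 0.00376; −0.61 and 0.0241 with the block).

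Among the Dnajc genes, Dnajc12 rose in all 3 comparisons with control, by 0.50 ± 0.16, 0.61 ± 0.16 and 1.07 ± 0.16 (adjusted p = 0.0331, 0.0264 and 0.000164). It was at 14.4 to 20.3 CPM (median 16.3) in control and at 27.9, 23.6 and 27.3 CPM in recovery limbs and 32.5, 40.01 and 36.9 in repeated limbs, above all controls in both. Its recovery call was absent when any 1 of the 3 recovery animals was left out (adjusted p = 0.174, 0.0725 and 0.103), and its atrophy call without animal 1 (0.277) or 3 (0.121). Dnajc27, which carries a small GTPase domain, fell after recovery (−0.76 ± 0.18, adjusted p = 0.019; 0.129 without animal 1) and after repeated atrophy (−1.03 ± 0.18, adjusted p = 0.000539). Its recovery limbs were at 29.7, 33.1 and 34.3 CPM and its repeated limbs at 20.6, 36.1 and 25.4 CPM, against 42.7 to 66.65 CPM (median 57.8), below every control in both. After atrophy, animals 1 and 3 were below the controls too, at 34.7 and 30.4 CPM, and animal 2 was at 56.3 CPM (−0.50 ± 0.18, adjusted p = 0.0587; −0.72 and 0.00721 without animal 2). Dnajc28 fell after repeated atrophy (−0.88 ± 0.16, adjusted p = 0.000625), with repeated limbs at 5.86, 10.5 and 10.99 CPM below all controls at 15.8 to 18.99 CPM (median 16.4).

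Dnajc2, a partner of Hsp70 at the ribosome, rose by 1.09 ± 0.33 after atrophy (adjusted p = 0.0245; 0.191 without animal 1) and 0.91 ± 0.33 after repeated atrophy (adjusted p = 0.0381; 0.189 without animal 2). Its control limbs were spread from 76.5 to 278 CPM and overlapped both groups. As log2 differences from the control mean, left and right limbs were at 1.41 and 0.29 in atrophy animal 1. They were at 1.09 and 1.07 in atrophy animal 2 and at 0.78 and 0.78 in atrophy animal 3, nearly level in both. Dnajc9, a histone chaperone, rose by 0.69 ± 0.21 (adjusted p = 0.0262; 0.29 without animal 1) and 0.96 ± 0.21 (adjusted p = 0.00216). The genes that fell after recovery besides Dnajc27 were Dnajb12, an ER membrane protein (−1.02 ± 0.27, adjusted p = 0.0264; 0.0891 without animal 1), Dnajc21, a ribosome assembly factor (−0.98 ± 0.29, 0.0488; 0.131 without animal 1), and Dnajb2, a client-sorting DnaJ of neurons and muscle (−0.87 ± 0.22, 0.0235; 0.121 without animal 1). Recovery limbs of Dnajb12 were at 60.4, 52.9 and 64.7 CPM, below all controls at 67.2 to 223 CPM (median 128.5). The right limbs of the recovery animals were also low for Dnajb12, Dnajc21 and Dnajb2. As log2 differences from the control mean, those of animals 1 to 3 were at −0.57, −0.60 and −0.84 for Dnajb12. The left limbs were at −0.99, −1.18 and −0.90. Right limbs were at −0.39, −0.65 and −0.47 for Dnajc21 and at −0.25, −0.51 and −0.62 for Dnajb2. For Dnajb2 the left limb of animal 3, at −0.47, was the higher one. Dnajb2 rose after repeated atrophy by 0.60 ± 0.22 (adjusted p = 0.0442), a call absent without any 1 of the 3 repeated animals (adjusted p = 0.176, 0.111 and 0.0609) and with the block (0.174). The remaining calls were Dnajb14, Dnajc8 and the barely detected Dnajb3 higher after both atrophies, Dnajb6, Dnajc18 and Dnajc30 higher after atrophy, and Dnajb1, Dnajc10, Dnajc24, Dnajc6 and Dnajc7 higher after repeated atrophy. Dnajb1, the main stress-inducible partner of Hsp70, was at 0.41 ± 0.19 after atrophy (adjusted p = 0.124) and 0.73 ± 0.19 after repeated atrophy (adjusted p = 0.00598). Hspbap1, which binds Hspb1, rose after repeated atrophy (0.77 ± 0.25, adjusted p = 0.0249), and Hspbp1, an Hsp70 exchange factor, did not pass (0.50 ± 0.21, adjusted p = 0.0746).

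**Figure D4:**
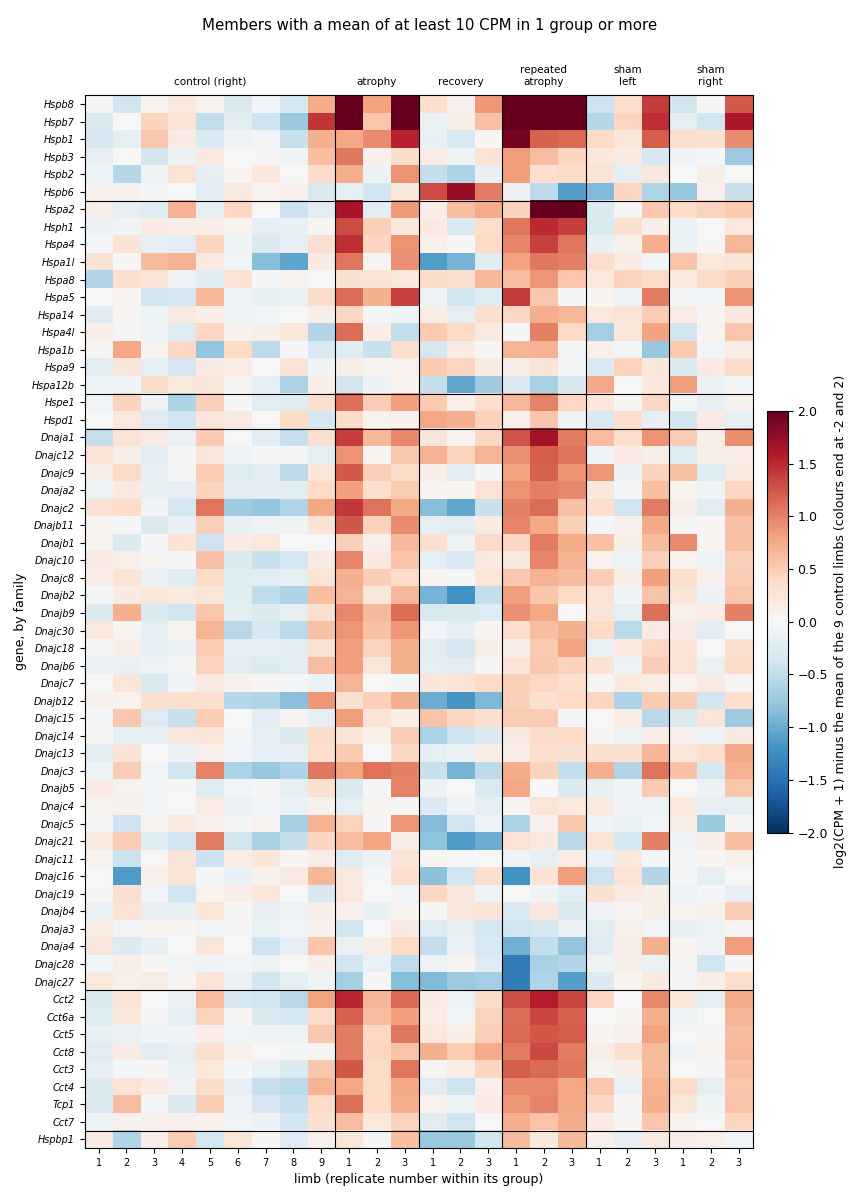
Heat map of log2(CPM + 1) minus the mean of the 9 control limbs for the 60 genes with a mean of at least 10 CPM in 1 group or more (rows, by family) in each limb (columns, by group), red for higher and blue for lower, with colours ending at −2 and 2. Red fills most of the small, Hsp70 and CCT rows of atrophy animals 1 and 3 and of the repeated limbs and is weaker in atrophy animal 2, and both limbs of sham animal 3 are redder than those of sham animals 1 and 2.

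Against the atrophy limbs, 25 genes were lower and 1 was higher in the recovery limbs, beside 14.5% and 3.34% of all rows, with a median log2 difference of −0.49 against −0.19 for all rows. The lower genes included Hspb8 (−1.37 ± 0.36, adjusted p = 0.0171), Hspb1 (−1.23 ± 0.29, 0.0117), Hspa5 (−1.32 ± 0.30, 0.0105), Dnajc2 (−1.87 ± 0.40, 0.00858) and 5 CCT subunits, with Hspb6 the higher one. For Dnajc2 the untreated right limbs of the same animals differed in the same direction. As log2 differences from the control mean, they were at 0.29, 1.07 and 0.78 in atrophy animals 1 to 3. In recovery animals 1 to 3 the right limbs were at −0.70, −0.78 and −0.60. After rescaling, 8 were lower and 3 higher, beside 5.2% and 5.48% of all rows. In the blocked fit 0 were called (limma, 9 unadjusted, beside 0.0% of all rows higher and 0.0143% lower), and 8 were called without atrophy animal 1, 14 without atrophy animal 3 (4 when only its left limb was left out), and 6 and 4 without recovery animals 1 and 2. In the repeated atrophy limbs against the recovery limbs, 31 genes were higher and 2 lower, beside 21% and 6.29% of all rows, among them Hspb8 (2.04 ± 0.36, adjusted p = 0.00143), Hsph1 (1.23 ± 0.22, 0.00179) and all 8 CCT subunits. The 2 lower genes were Hspb6 (−1.94 ± 0.25, 0.00027) and Dnajc28 (−0.78 ± 0.20, 0.00835). There were 22 higher and 5 lower after rescaling (10.5% and 11.1% of all rows), 20 calls without recovery animal 2, and 0 with the block (limma, 23 unadjusted, beside 0.0214% of all rows higher and 0.0641% lower).

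Between repeated atrophy and atrophy, limma called 0 of the 73 genes, beside 0.0143% of all rows higher and 0.0214% lower, and 7 genes had an unadjusted p under 0.05. These were Hsph1 (0.65, 95% interval 0.18 to 1.12, adjusted p = 0.539), Dnajc12 (0.58, 0.17 to 0.98), Hspa14 (0.50) and Cct8 (0.45, 0.09 to 0.81) on the high side, and Dnaja4 (−0.89, −1.34 to −0.43, adjusted p = 0.205), Dnajc28 and Dnajc27 on the low side. For Hspb8 the difference was 0.68 with an interval of −0.07 to 1.42, and for Hspa5 it was −0.43 with −1.06 to 0.20. Over the 8 CCT subunits the differences lay between 0.14 and 0.45, all positive. With these intervals a difference between the first and the repeated disuse was neither shown nor set aside for these genes. A single call, higher, appeared when only the left limb of atrophy animal 1 was left out.

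Counted by limbs that do not overlap, 9 of the 73 genes had all atrophy limbs above all control limbs and 1 had them below, beside 4.75% and 0.52% of all rows. For recovery limbs 4 genes lay above and 4 below (5.57% and 4.84% of all rows), and for repeated limbs 24 and 3 (16.5% and 3.87%). Recovery limbs lay all above the atrophy limbs for 4 genes and all below them for 32 (7.27% and 26.8%), and repeated limbs lay above the recovery limbs for 42 genes and below for 3 (32% and 10.5%). Repeated limbs lay above the atrophy limbs for 5 genes and below for 4 (2.79% and 4.23%), and sham left limbs above control for 1, Hspa14 (1.77%).

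Within animals, the left limb was above the right in 3 of 3 animals for 46 of the 73 genes in the repeated atrophy group, 25 in the atrophy group, 28 in the recovery group and 19 in the sham group, and below it in 3 of 3 for 7, 5, 11 and 5. Of all rows, the left limb was above in 3 of 3 animals for 40.6%, 25.5%, 29.8% and 14.8% in the same order of groups, and below for 13.5%, 7.59%, 14.9% and 9.09%. For Hspb8 the left minus right log2 difference was 2.46, 0.73 and 1.40 in atrophy animals 1 to 3, 3.11, 2.22 and 2.18 in repeated animals, 0.62, 0.13 and 1.22 in recovery animals, and −0.04, 0.34 and 0.18 in sham animals. For Cct2 it was 1.80, 0.06 and 0.33 in atrophy animals against 1.00, 1.57 and 1.46 in repeated animals. For Hspb6 it was 1.13, 1.67 and 0.94 in recovery animals against −0.21, −0.51 and −1.11 in repeated animals. The sign was thus shared by all 3 animals for Hspb8 in every TTX group, and for Cct2 the size after atrophy came from animal 1. Among atrophy animals, the limbs were furthest apart in animal 1 for every subunit of the CCT ring. As log2 differences from the control mean, Cct4 left and right limbs were at 0.77 and −0.29, 0.39 and 0.37, and 0.77 and 0.68 in animals 1 to 3. Tcp1 had 1.10 and −0.30, 0.41 and 0.49, and 0.72 and 0.39. Cct7 had 0.61 and −0.10, 0.21 and 0.09, and 0.46 and 0.31.

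**Figure D5:**
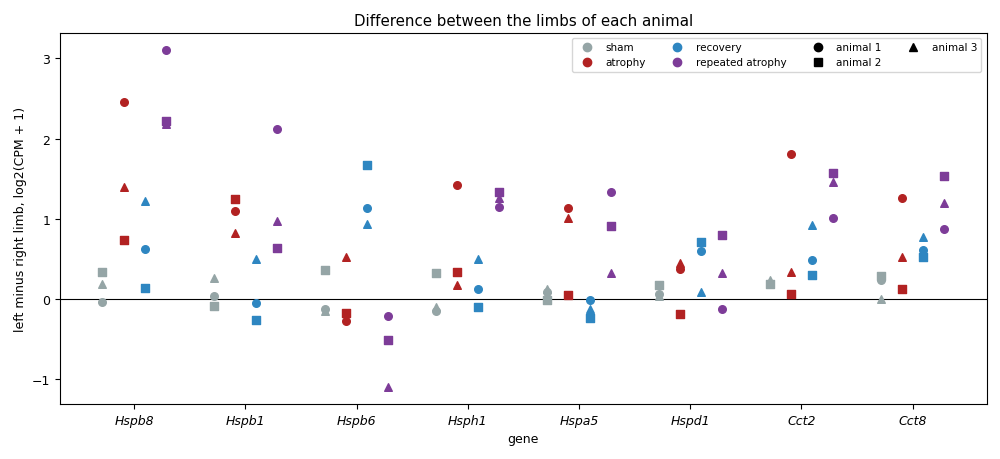
Left minus right difference in log2(CPM + 1) (y axis) within each animal for Hspb8, Hspb1, Hspb6, Hsph1, Hspa5, Hspd1, Cct2 and Cct8 (x axis), with 1 point per animal, coloured by group and shaped by animal number. Sham animals lie near 0 for all 8 genes, repeated animals lie above 0 for Hspb8, Hspb1, Hsph1, Hspa5, Cct2 and Cct8, and Hspb6 is above 0 after recovery and below 0 after repeated atrophy.

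In the sham comparison, the left limbs of sham-operated rats against the 9 control limbs, limma called 0 of 73 genes and 0.0% of all rows, with 8 of the 73 at an unadjusted p under 0.05 (2 after rescaling, 0 with the block). The median log2 difference was 0.19, beside 0.17 over all rows. The highest differences included Dnaja1 (0.62 ± 0.21) and Hspb1 (0.61 ± 0.26, 95% interval 0.05 to 1.17, adjusted p = 0.352). Since each sham animal has its own time, animal and time cannot be told apart among them. Sham animal 3 was high on both sides: Hspb8 was at 1707 CPM on the left and 1506 on the right, against a control maximum of 1079, and the median log2 difference of the CCT genes was 0.70 and 0.59.

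Of the Hsp90 family, 3 of 4 rose after atrophy and after repeated atrophy: Hsp90aa1, the inducible cytosolic form (1.70 ± 0.32 and 1.71 ± 0.32, adjusted p = 0.00621 and 0.000675), Hsp90ab1, the constitutive form (0.70 ± 0.25 and 1.05 ± 0.25, 0.0485 and 0.0036), and Hsp90b1 of the ER (1.05 ± 0.21 and 0.72 ± 0.21, 0.00668 and 0.0144). Trap1 of mitochondria did not pass (−0.03 ± 0.14 and 0.25 ± 0.14). Hsp90aa1 was at 84.3 to 227 CPM (median 117) in control, 561.5, 371 and 440.3 CPM in atrophy limbs and 624, 572 and 261 in repeated limbs, above all controls in both. Without atrophy animal 1 the adjusted p after atrophy was 0.13 for Hsp90aa1, 0.309 for Hsp90ab1 and 0.136 for Hsp90b1, and without repeated animal 2 that of Hsp90b1 after repeated atrophy was 0.0943. The shares of all rows that rose were 20.3% and 28.1%. After rescaling, 2 of the 4 rose after atrophy (Hsp90aa1 and Hsp90b1) and 2 after repeated atrophy (Hsp90aa1 and Hsp90ab1), beside 4.73% and 13.1% of all rows, with medians of 0.51 and 0.50. In the blocked fit all 4 Hsp90 genes rose after repeated atrophy and none was called after atrophy, beside 21.5% and 0.0% of all rows.

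Cryab, alphaB-crystallin, is a small heat shock protein under another name and was the one alpha-crystallin in the table. It was at 771 to 1871 CPM (median 979.8) in control limbs, with atrophy limbs at 4675, 1683 and 3830 CPM, recovery limbs at 719.9, 581 and 878 and repeated limbs at 6570, 3530 and 3002, so that atrophy animal 2 alone among the disused limbs lay within the control range. It rose by 1.59 ± 0.31 (adjusted p = 0.00646; 0.151 with the block) and 1.99 ± 0.31 (adjusted p = 0.000225). Of 12 Hsp70 exchange factors and co-chaperones, 8 rose after atrophy, 1 fell after recovery and 6 rose after repeated atrophy, and after rescaling 0 rose after atrophy and 3 after repeated atrophy. Bag3, the partner of Hspb8, rose by 0.59 ± 0.18 (adjusted p = 0.0278) and 1.22 ± 0.18 (adjusted p = 0.000163), with repeated limbs at 472, 366 and 432 CPM against 151 to 294 CPM (median 170.5). Sil1, the exchange factor of BiP, rose by 1.64 ± 0.28 and St13 by 1.22 ± 0.24 after repeated atrophy (adjusted p = 0.000441 and 0.00103). Of 16 Hsp90 co-chaperones, 2 rose and 1 fell after atrophy, 3 fell after recovery, and 6 rose and 1 fell after repeated atrophy, and after rescaling none rose in any of the 3 and 2, 4 and 2 fell. Fkbp4 fell in each comparison with control, with log2 fold changes of −0.58 ± 0.16, −0.94 ± 0.16 and −1.04 ± 0.16.

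Of 4 heat shock factor genes in the table, Hsf2 and Hsbp1, an inhibitor of heat shock factors, rose after atrophy, and these and Hsf4 rose after repeated atrophy (Hsf2 1.23 ± 0.30, adjusted p = 0.00477; Hsf4 1.07 ± 0.27, 0.00592). Hsf1, the master regulator, had 0.22 ± 0.20 after atrophy and 0.21 ± 0.20 after repeated atrophy, which did not pass, and fell after recovery (−0.78 ± 0.20, adjusted p = 0.0281), as did Hsf4 (−1.16 ± 0.27, 0.0171). Hsf1 recovery limbs were at 38.6, 33.8 and 36.03 CPM, below every control limb at 40.7 to 90.4 CPM (median 59.05). Of 12 prefoldin and chaperonin cofactor genes, which bring actin and tubulin to and from CCT, 7 rose after atrophy and 10 after repeated atrophy (1 and 5 after rescaling), led by Tbcb (1.84 ± 0.30) and Tbce (1.30 ± 0.20), both tubulin cofactors. Of 18 ER chaperone and unfolded protein response genes, a list that holds none of the 73 genes, 14 rose after atrophy and 15 after repeated atrophy (9 and 8 after rescaling), among them Sdf2l1 (1.73 ± 0.30 and 1.62 ± 0.30), Herpud1 (1.00 ± 0.22 and 1.29 ± 0.22), Manf and Pdia3. Of 11 mitochondrial proteostasis genes, 5 rose in each, led by Htra2 and Yme1l1 after repeated atrophy (0.89 ± 0.18 and 1.09 ± 0.24), and after rescaling 1 rose and 1 fell after atrophy and 2 rose and 3 fell after repeated atrophy. The counts of these lists and of the co-chaperone lists stand beside 20.3% of all rows that rose and 2.33% that fell in atrophy limbs, 4.4% and 3.33% in recovery limbs and 28.1% and 6.24% in repeated limbs. After rescaling these shares were 4.73% and 4.95%, 6.02% and 6.04%, and 13.1% and 12.1%. In the blocked fit none of these lists had a call after atrophy, beside 0.0% of all rows. After recovery 3 rows of the whole table were called lower in that fit. These are too few for all the recovery falls of the heat shock factors and co-chaperones.

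Set by promoter, 4 of the 6 genes with a 3-unit heat shock element rose with atrophy, 1 with recovery and 5 with repeated atrophy, with medians of 0.65, 0.28 and 0.79. Of the 53 searched genes without one, 20 rose after atrophy, 2 rose and 5 fell after recovery, and 25 rose and 4 fell after repeated atrophy, with medians of 0.51, −0.07 and 0.55. Over all rows 20.3%, 4.4% and 28.1% rose, and 3.33% and 6.24% fell after recovery and repeated atrophy. After rescaling, 1, 0 and 3 of the 6 rose, against 10, 2 and 15 of the 53, of which 4, 7 and 6 fell. The rescaled shares of all rows that rose were 4.73%, 6.02% and 13.1%, and 4.95%, 6.04% and 12.1% fell. With the block 0 of either class were called in atrophy or recovery limbs, and 4 of the 6 rose in repeated limbs, against 21 of the 53 that rose and 3 that fell. In that fit 21.5% of all rows rose and 5.66% fell in repeated limbs. The shares were 0.0% in atrophy limbs, and 0.0428% higher and 0.0214% lower in recovery limbs. Within the 6, Hsph1 and Dnaja1 lay at the high end and Hspd1 at the low end after repeated atrophy. Hspb8 and Hspb6, which moved in opposite directions after repeated atrophy, both carry 2-unit matches and no 3-unit match in these windows.

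Markers of other cells moved with some groups. After recovery, 6 of 8 fibroblast markers rose, with a summed level of 1315 to 2506 CPM against 248 to 693 in control, and 5 of 9 macrophage and leukocyte markers rose, with 185 to 427 CPM against 58.9 to 189, beside 4.4% of all rows. After atrophy and repeated atrophy none of either list rose. Of 6 satellite cell markers, 3 rose after atrophy and 3 rose and 1 fell after repeated atrophy, with summed levels of 99.8 to 283 and 202 to 299 CPM against 68.7 to 132, beside 20.3% of all rows that rose after atrophy, and 28.1% that rose and 6.24% that fell after repeated atrophy. Of 10 fast-fibre genes 1 fell after atrophy and 3 after repeated atrophy, and of 8 slow-fibre genes 3 fell in each, beside 2.33% and 6.24% of all rows. With the animal as a block, no row of the whole table was called after atrophy, so the atrophy calls of these lists were absent. After recovery 6 rows of the whole table were called higher in that fit, too few for all the fibroblast and leukocyte calls. No marker in these lists was under 1 CPM in every limb. The part of these cells and fibres in the levels of the heat shock proteins was not tested.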

How the data were processed

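RNA of 24 tibialis anterior muscles was sequenced from directional polyA libraries prepared in random order. The submitters' processing notes name Bowtie2 2.2.5, STAR, Partek, DESeq2 and the rn7 genome, and the counting step and annotation are not given in the sources used here. Values as deposited are in CPM (reads per 1000000), and each column sums to 1000000, while the study's methods give a median-of-ratios scaling. Of 27 value columns, 24 matched a sample record and 3 were not used. After 28 repeated rows were dropped, 14243 rows remained. Low values were whole multiples of 1 read in 87.7 to 89.5% of cases (below 1 CPM, within 0.05 reads), too few to recover reads, so no count test was run, and precision was judged from the limbs alone.

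Computed here: log2(CPM + 1) was fitted in limma 3.58.1 under R 4.3.3, trend on, for rows above 0 in at least 3 samples, with the 18 limbs of TTX animals in 1 fit and the sham comparison in a fit of 12. Scripts were tested on simulated data. Alternatives were a pseudocount of 0.1, trimmed-mean rescaling, no filter, a mean of at least 10 CPM, the animal as a replicate block, no trend, only the groups compared, all 12 right limbs as control, and leaving out each animal. Chosen after seeing the data were leaving out a left limb alone, the block with rescaling, and leaving out control replicate 9. The labels give both limbs of an animal the same number, so the numbers pair limbs. Over 10619 rows the left and right deviations from their group means correlated at 0.62 to 0.84 in sham animals, at 0.03, 0.00 (−0.0043) and 0.51 in atrophy animals, 0.14, 0.06 and −0.32 in recovery animals and 0.30, −0.19 and 0.53 in repeated animals.

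The genes and lists were chosen with earlier results of these data known. Values are named for all small heat shock proteins, CCT genes, Hspd1, Hspe1, Hsph1, Hsp90 genes and Hspa genes of at least 1 CPM, for DnaJ genes with the 4 largest rises and 4 largest falls called per comparison at 10 CPM or more, and for at most 4 genes per list with the smallest adjusted p after repeated atrophy. Dnajc3, Dnajb1, Hspbp1, Hspbap1, Trap1 and Hsf1 were named after their values were seen.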

Additional observations from a re-analysis of the deposited data

Results flagged for a closer look

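Among the 9 control limbs, the highest limb stood far from the rest (Dixon's test, 95% level) for 6 of 48 named genes. Chance flags about 1 group in 20, but all these genes were read from the same limbs. The share over all rows is not given, so the count does not set these genes apart from the rest of the table. For 5 of them it was control replicate 9, the right limb of atrophy animal 3: Cct5 at 279 CPM (next highest 211), Hspb3 at 91.8 (67.9), Hspb7 at 1158 (581), Hspb8 at 1079 (751) and Hsp90ab1 at 3453 (2429). For Hspb11 it was control replicate 5 at 8.80 CPM (4.51). The untreated right limb of that atrophy animal was thus high for genes that rose after disuse, and its part in the results was not tested beyond the fit without it.

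The mean left minus right log2 difference had opposite signs in all animals of 2 groups for 4 genes, in 7 of 144 pairs of groups examined, beside 2.75% of such pairs over all rows. For Hspb6 it was 1.24 after recovery and −0.61 after repeated atrophy, 1.85 apart. Hspa5 had 0.73 in atrophy, −0.13 in recovery and 0.85 in repeated animals, so the gaps were 0.86 (atrophy minus recovery) and −0.98 (recovery minus repeated atrophy). Dnajb9 had 0.71, −0.06 and 0.54 in the same order, with gaps of 0.77 and −0.59. Hspb2, which passed in no comparison with control over all animals, had 0.47, −0.51 and 0.64, with gaps of 0.98 and −1.15. For Dnajb9 and Hspa5 the sign in recovery animals rested on small differences. As log2 differences from the control mean, Dnajb9 left and right limbs were at −0.30 and −0.23, −0.29 and −0.28, and −0.26 and −0.17. Hspa5 limbs were at −0.11 and −0.09, −0.40 and −0.16, and −0.26 and −0.13. In the limma fit with the animal as a block, none of the 73 genes was called between recovery and atrophy or between repeated atrophy and recovery (9 and 23 at an unadjusted p under 0.05).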

How the results depend on the processing

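Of the 73 genes, 28 were called after atrophy, 9 after recovery, 39 after repeated atrophy, 26 between recovery and atrophy, 33 between repeated atrophy and recovery, and 0 between repeated atrophy and atrophy and in the sham comparison. With the replicate block (animal) there were 0 calls in each of these but repeated atrophy against control, where the count stayed within 1.5 times. With the block and rescaling there were 24 after repeated atrophy and 0 after atrophy, after recovery, between recovery and atrophy and between repeated atrophy and recovery. Rescaling alone gave 15 after atrophy and 11 between recovery and atrophy, where the fit of only the groups compared gave 15. Leaving out 1 animal or 1 limb gave 0 to 39 calls after atrophy, 1 to 8 after recovery, 24 to 46 after repeated atrophy, 4 to 34 between recovery and atrophy, 20 to 33 between repeated atrophy and recovery and 0 to 1 between repeated atrophy and atrophy. Without only the left limb of recovery animal 2 or 3 there were 2 after recovery, without that of repeated animal 2 there were 25 after repeated atrophy, and without that of recovery animal 2 there were 5 between recovery and atrophy. The causes were not tested. The pseudocount, the filters and the trend moved no count by more than 1.5 times. Of 67 calls among 144 named values, 66 were present with a pseudocount of 0.1, 66 without the filter, 43 after rescaling and 28 with the block, and no called value changed sign. Without atrophy animal 1, 0 of the 25 atrophy calls among them were present. Cct6b, Dnajb3, Dnajc6 and Hspa1a had at most 97 reads in any limb of the TTX animals.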
